A study of Mus musculus with 9 samples.

Results

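RNA levels of 10 genes of the activin A and TGF-beta pathway were examined in mouse bone marrow-derived macrophages, among the 55655 rows of the 2 expression tables. The genes encode the ligands Inhba and Tgfb1, the receptors Tgfbr1, Tgfbr2, Acvr1b and Acvr2a, the receptor Smads Smad2 and Smad3, and the inhibitors Smad7 and Skil. They were chosen by name from the Ensembl identifiers, and the set was proposed because Inhba was among the genes with the most negative difference under photobiomodulation (PBM, treatment with low-intensity laser light). The values of these genes in M1+PBM against M1 are therefore given as a description, with no test.

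All cells came from the femur and tibia of wild type C57BL/6 mice aged 6 to 8 weeks, male according to the methods of the study. Bone marrow cells were grown with 10 ng/mL macrophage colony-stimulating factor for 7 days to give M0 macrophages. M1 macrophages were M0 cells exposed to lipopolysaccharide and interferon-γ, without laser light and kept in the dark chamber, and M1+PBM macrophages received the same 2 stimuli together with laser irradiation. RNA of M1 and M1+PBM cells was collected 12 h after irradiation, and each of the 3 groups had 3 libraries. The labels do not say whether the 3 libraries of a group came from separate animals or cultures. The study states 3 independent repeats for its RNA-seq, but not whether these are the 3 libraries or used separate animals. The p-values therefore measure only the spread between these libraries, which may be technical.

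Activin A is a dimer of the protein encoded by Inhba. It binds a type II receptor such as Acvr2a, which recruits the type I receptor Acvr1b, whereas TGF-beta 1 signals through Tgfbr2 and Tgfbr1. Both type I receptors phosphorylate Smad2 and Smad3, which enter the nucleus with Smad4, while Smad7 blocks the receptors and Skil (SnoN) holds Smad complexes in a repressed state. Macrophages are a source of both ligands: activin A is secreted after inflammatory stimulation, and TGF-beta 1 is secreted in a latent form that has to be released before it can act.

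The values were in FPKM, fragments scaled for transcript length and library depth. All 8 macrophage markers of a fixed list (Adgre1, Itgam, Csf1r, Cd68, Lyz2, Cd14, Fcgr1 and Mertk) were above 10 FPKM in all 9 libraries. All 7 dendritic cell markers stayed below 1 FPKM. Of 8 neutrophil markers, S100a9 and Ly6g were listed at 0 in all libraries, and the summed list was 1.53 to 2.39 FPKM in M0, 8.94 to 28.1 in M1 and 6.44 to 15.2 in M1+PBM, nearly all of it from S100a8 and Camp. M0 replicate 3 stood apart. Its summed FPKM over 9 M1 polarization markers was 307.8, against 29.2 and 27.2 in the other M0 libraries and 2016 to 2128 in M1, and its sum over 10 stromal markers was 237.6, against 11.5 and 8.68. M1 replicate 2 had a sum of 18.1 over 7 liver markers, where no other library exceeded 3.61. The depth, estimated from the step between low FPKM values, was 31100000 to 41770000 fragments. The M0 libraries were deposited in a separate table, and the median row was lower by 0.34 on the log2 scale in M1 than in M0, and by 0.27 in M1+PBM. Differences from M0 therefore carry no test. Levels, folds and overlaps are as deposited, where the median row stood at 79.1% of M0 in M1 and 82.8% in M1+PBM. All log2 differences from M0 are of mean FPKM + 1, and those of genes are given relative to the median row.

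The promoters of the 2 ligands and of the activin type I receptor are shown because their base composition differs. RefSeq windows (build GRCm38.p6) of 250 bases before the annotated start were taken for 7 of the 10 genes. Smad2, Smad7 and Skil had no window in the set used. For the 10 genes that set left out all windows of a whole chromosome, so a missing window does not mean that RefSeq holds none. CG pairs are in capitals, and in the Inhba promoter so is the motif TATAAA. The windows lie at chr13:16011601-16011850 (Inhba), chr7:25686752-25687001 (Tgfb1) and chr15:101173822-101174071 (Acvr1b), all on the plus strand.
Inhba: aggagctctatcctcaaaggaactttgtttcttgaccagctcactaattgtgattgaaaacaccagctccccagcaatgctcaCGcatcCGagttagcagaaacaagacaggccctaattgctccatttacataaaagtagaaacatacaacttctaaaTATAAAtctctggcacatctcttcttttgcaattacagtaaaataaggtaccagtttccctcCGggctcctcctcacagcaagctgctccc
Tgfb1: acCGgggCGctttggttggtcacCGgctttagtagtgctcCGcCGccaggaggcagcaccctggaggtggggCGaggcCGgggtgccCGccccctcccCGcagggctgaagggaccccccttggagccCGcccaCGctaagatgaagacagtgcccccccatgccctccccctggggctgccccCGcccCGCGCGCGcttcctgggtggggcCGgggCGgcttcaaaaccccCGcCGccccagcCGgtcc
Acvr1b: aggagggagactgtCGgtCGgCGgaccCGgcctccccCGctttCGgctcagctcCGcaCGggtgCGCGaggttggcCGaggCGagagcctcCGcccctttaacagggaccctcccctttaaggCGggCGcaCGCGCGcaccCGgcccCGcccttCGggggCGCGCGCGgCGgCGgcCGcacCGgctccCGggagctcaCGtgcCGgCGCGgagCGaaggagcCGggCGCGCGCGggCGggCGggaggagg

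The Inhba window had a GC content of 43.2% and 3 CG pairs, where the median over 32851 windows was 52.4% and 6 pairs. Its TATAAA began 91 bases before the start on the gene's own strand. The motif was held on either strand by 12.4% of all windows and by no other window of the 7 genes. The Tgfb1 window had a GC content of 75.2% with 21 CG pairs, and the Acvr1b window had 78.8% with 42. The windows of Acvr2a (82% GC, 49 CG pairs) and Smad3 (69.2%, 22) were also above the median, as was that of Tgfbr2 (58.4%, 12), and Tgfbr1 had a window at each of 2 starts (74.8%, 29 and 52.8%, 3). Of the other motifs searched on both strands, CAGACA, a Smad-binding sequence, was found only 203 bases before the second start of Tgfbr1 (17.1% of all windows hold it). TGANTCA, TGACGTCA and GTCTAGAC were in none of the 8 windows, and 6.75%, 1.55% and 0.167% of all windows hold them. A match is a description of the letters and not a measured site.

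Inhba (ENSMUSG00000041324), which encodes the subunit of activin A, was nearly silent in M0 and high in M1. Its FPKM was 0.11, 0.10 and 1.77 in M0 replicates 1, 2 and 3, the third being the library that stood apart. In M1 it was 36.2, 26.3 and 11.6, and in M1+PBM it was 4.80, 8.17 and 2.17. No library of one group overlapped with those of another: M1 was highest, M1+PBM was intermediate and M0 was lowest. The M1 mean was 24.7 ± 12.4 FPKM and the M1+PBM mean 5.05 ± 3.01 (SD, n = 3 each), and irradiated cells held 20.4% of the M1 level, and they were still 7.62-fold above the M0 mean. Without M0 replicate 3 the M1 mean was 229.6-fold above M0 instead of 37.3-fold, and the M1+PBM mean 46.9-fold instead of 7.62-fold. On mean FPKM + 1, the log2 difference from M0 was 4.29 in M1 and 2.14 in M1+PBM relative to the median row. The added 1 makes this smaller than the folds of mean FPKM, since Inhba was low in M0. These are bulk libraries, in which fewer expressing cells and less RNA per cell cannot be told apart. Up to about 22 fragments lay behind each of the lower M0 values and up to 9380 behind the highest M1 value.

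**Figure D1:**
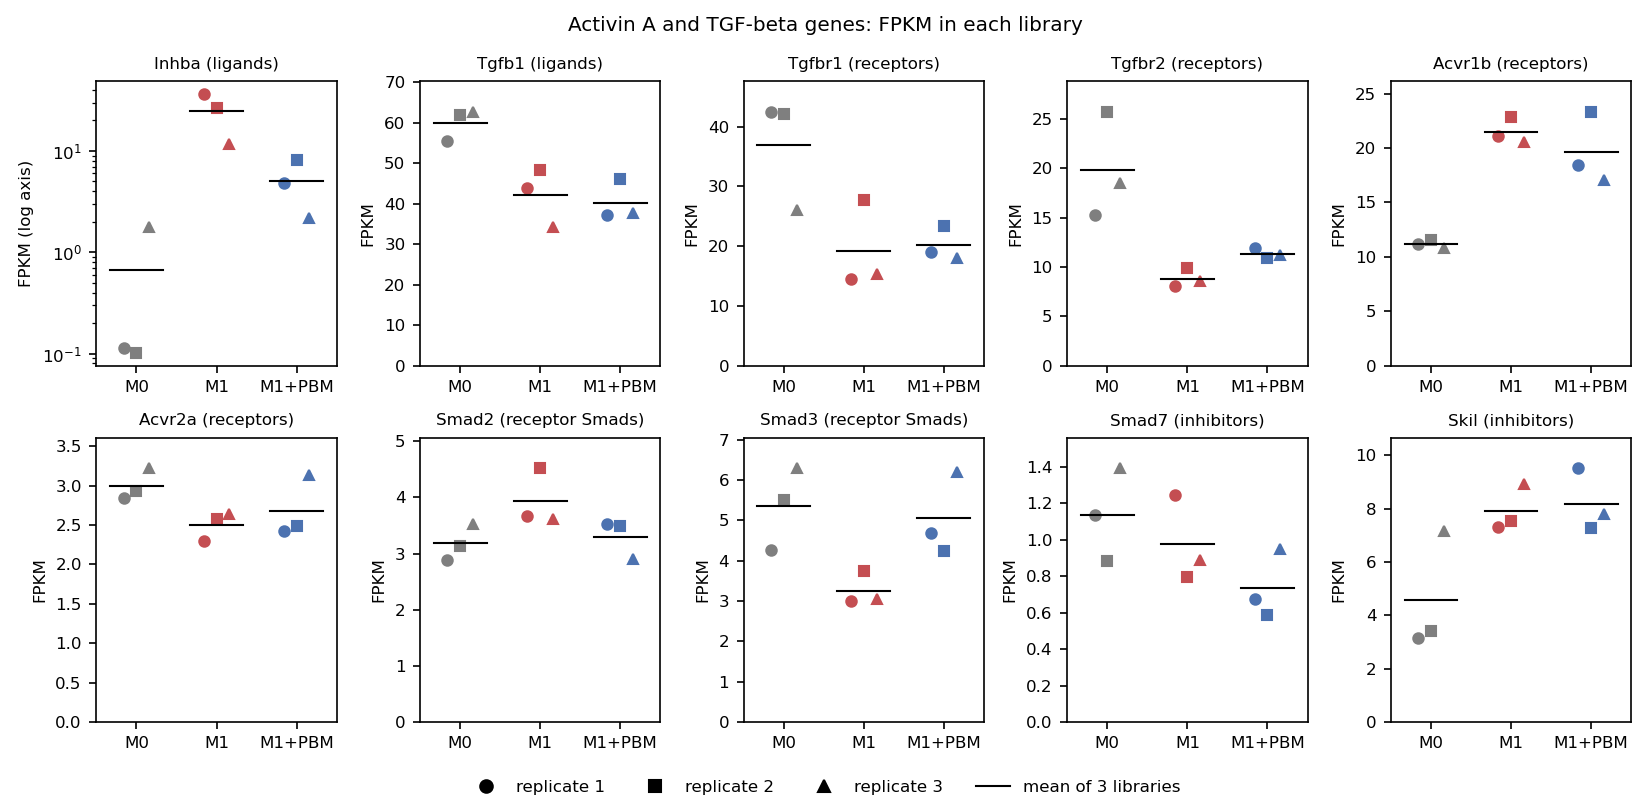
FPKM of each of the 10 genes (vertical axes, from 0 except for Inhba, which has a log axis) in the 3 libraries of M0, M1 and M1+PBM. Marker shapes are replicate numbers and lines are means of 3 libraries; Inhba spans 11.6 to 36.2 FPKM in M1 and 2.17 to 8.17 in M1+PBM, while Tgfb1, Tgfbr1, Acvr1b, Acvr2a, Smad7 and Skil overlap between those groups.

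On the log2(FPKM + 1) scale, the fitted difference in Inhba between M1+PBM and M1 was −2.08 (SE 0.51), and the 3 replicate pairs gave −2.68, −1.57 and −1.99. The labels do not state this pairing, which was inferred from the same libraries. Blocking on the replicate number gave an SE of 0.22. With any 1 of the 6 libraries left out the difference was −2.53 to −1.68, where the sign could not change because the groups did not overlap. Inhba had the 6th lowest difference of 12238 rows tested, next to Ptgs2, the inducible cyclooxygenase (−2.16), and Cxcl2, a neutrophil chemokine (−1.96). The summed M1 polarization markers moved the same way, from 2016 to 2128 FPKM in M1 to 950.4 to 1554 in M1+PBM. Of that list, Nos2, Cd86, Il1b and Il6 were lower without overlap. Tnf, Il12b, Cxcl10, Irf1 and Cxcl9 overlapped between the groups, and the Cxcl9 mean was higher in M1+PBM (16.9 FPKM) than in M1 (15.5). The part of these markers in the Inhba difference was not tested.

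The 5 genes whose log2 levels followed Inhba most closely over the 6 M1 and M1+PBM libraries were Adgrl2, an adhesion G protein-coupled receptor (Pearson's r = 0.986), Gm37498 (0.982), Cd24a, a small surface glycoprotein (0.980), Gm10553 (0.978) and Ttc19, a factor of mitochondrial complex III (0.977). These libraries form 2 groups, so the correlations mostly hold the difference between groups, and they carry no p. Away from that contrast the 5 genes differed. In M0, Adgrl2 was higher (4.16 to 4.98 FPKM) than in any M1 library (2.41 to 3.43), whereas Gm37498 had 0.15 to 0.45 FPKM in M0 and 2.83 to 5.95 in M1.

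Tgfb1 (ENSMUSG00000002603), the other ligand, had the highest level of the 10 genes in every group. Its FPKM was 55.4, 61.9 and 62.7 in M0, 43.8, 48.4 and 34.3 in M1, and 37.2, 46.0 and 37.6 in M1+PBM. The M1 and M1+PBM libraries overlapped and both groups lay below M0. The M1 mean was 42.2 ± 7.19 and the M1+PBM mean 40.3 ± 4.98 FPKM (SD, n = 3 each), a fitted log2 difference of −0.06 (SE 0.16). Relative to the median row, Tgfb1 was lower than M0 by only 0.16 (log2) in M1 and 0.29 in M1+PBM, and after scaling of all libraries by median of ratios it overlapped with M0 in both comparisons. The ratio of Inhba to Tgfb1 FPKM was 0.0020, 0.0016 and 0.028 in M0, 0.825, 0.543 and 0.338 in M1, and 0.129, 0.178 and 0.058 in M1+PBM. These ratios did not overlap between groups, and they do not depend on how libraries are scaled.

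The type I receptors of the 2 ligands lay on opposite sides of M0. Acvr1b (ENSMUSG00000000532), the activin type I receptor ALK4, had 11.2, 11.6 and 10.8 FPKM in M0, 21.1, 22.8 and 20.5 in M1, and 18.5, 23.3 and 17.1 in M1+PBM. Every stimulated library was above every M0 library, with a mean 1.92-fold higher in M1 and 1.75-fold higher in M1+PBM. Relative to the median row the log2 difference from M0 was 1.22 in M1 and 1.03 in M1+PBM. The M1 and M1+PBM libraries of Acvr1b overlapped (log2 difference −0.13, SE 0.13).

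Tgfbr1 (ENSMUSG00000007613), the TGF-beta type I receptor ALK5, had 42.5, 42.1 and 26.1 FPKM in M0, 14.4, 27.7 and 15.4 in M1, and 19.0, 23.3 and 18.0 in M1+PBM. M0 replicate 3 was lower than M1 replicate 2, so M0 and M1 overlapped, while all M1+PBM libraries were below M0. Without M0 replicate 3, or without M1 replicate 2, Tgfbr1 no longer overlapped between M0 and M1. Relative to the median row it was lower than M0 by 0.57 in both stimulated groups, and with median-of-ratios scaling M1+PBM overlapped with M0. The difference between M1+PBM and M1 was 0.12 (SE 0.25), and without M1 replicate 2 it was 0.40, with no overlap between the groups.

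The ratio of Acvr1b to Tgfbr1 was 0.264, 0.275 and 0.414 in M0, 1.46, 0.823 and 1.34 in M1, and 0.970, 1.00 and 0.948 in M1+PBM. Both stimulated groups lay above M0 without overlap, and the M1+PBM libraries lay within the range of M1.

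Tgfbr2 (ENSMUSG00000032440), the TGF-beta type II receptor, had 15.3, 25.7 and 18.5 FPKM in M0, 8.04, 9.87 and 8.59 in M1, and 11.9, 10.9 and 11.2 in M1+PBM. The order was M0, M1+PBM, M1, with no overlap between any of the groups. The M1+PBM mean was 128.4% of the M1 mean, and the fitted log2 difference was 0.33 (SE 0.10), with 0.51, 0.13 and 0.35 in the 3 pairs. Relative to the median row it was lower than M0 by 0.75 in M1 and 0.48 in M1+PBM (log2). With median-of-ratios scaling Tgfbr2 stayed below M0 without overlap in M1 but overlapped with M0 in M1+PBM.

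Acvr2a (ENSMUSG00000052155), the activin type II receptor, was lower than the other receptors and had 2.84, 2.93 and 3.22 FPKM in M0, 2.29, 2.58 and 2.64 in M1, and 2.42, 2.48 and 3.13 in M1+PBM. M1 lay below M0 without overlap as deposited, but above it by 0.15 (log2) relative to the median row, and the M1+PBM libraries overlapped with both groups. The log2 difference between M1+PBM and M1 was 0.066 (SE 0.11), and its sign was not stable, with −0.021 when M1+PBM replicate 3 was left out. The ratio of Acvr1b to Acvr2a was 3.35 to 3.95 in M0, 7.77 to 9.21 in M1 and 5.46 to 9.39 in M1+PBM.

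The 2 receptor Smads showed opposite patterns. Smad3 (ENSMUSG00000032402) had 4.27, 5.51 and 6.30 FPKM in M0, 2.99, 3.74 and 3.05 in M1, and 4.70, 4.25 and 6.21 in M1+PBM. M1 was below both other groups without overlap, and M1+PBM overlapped with M0. The M1+PBM mean of 5.05 ± 1.03 FPKM was 155.0% of the M1 mean of 3.26 ± 0.417 (SD, n = 3 each). The fitted log2 difference was 0.50 (SE 0.15) and the 3 pairs gave 0.51, 0.15 and 0.83. The log2 difference from M0 was −0.24 in M1 and 0.20 in M1+PBM relative to the median row. With median-of-ratios scaling the M1 and M0 libraries of Smad3 overlapped, while M1+PBM stayed above M1 without overlap.

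Smad2 (ENSMUSG00000024563) had 2.89, 3.13 and 3.53 FPKM in M0, 3.67, 4.52 and 3.61 in M1, and 3.52, 3.49 and 2.89 in M1+PBM. M1 was above both other groups without overlap, although the gaps were small. The lowest M1 value was 3.61, and the highest was 3.53 in M0 and 3.52 in M1+PBM. The log2 difference between M1+PBM and M1 was −0.20 (SE 0.12), negative in all 3 pairs (−0.049, −0.30 and −0.24). Smad2 was above M0 by 0.58 in M1 and 0.31 in M1+PBM (log2) relative to the median row.

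The ratio of Smad3 to Smad2 was 1.48, 1.76 and 1.78 in M0, 0.814, 0.827 and 0.846 in M1, and 1.34, 1.22 and 2.15 in M1+PBM. Smad3 was thus the higher of the pair in every M0 and M1+PBM library and the lower in every M1 library. This ratio is taken within a library and does not depend on the scaling of libraries.

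**Figure D2:**
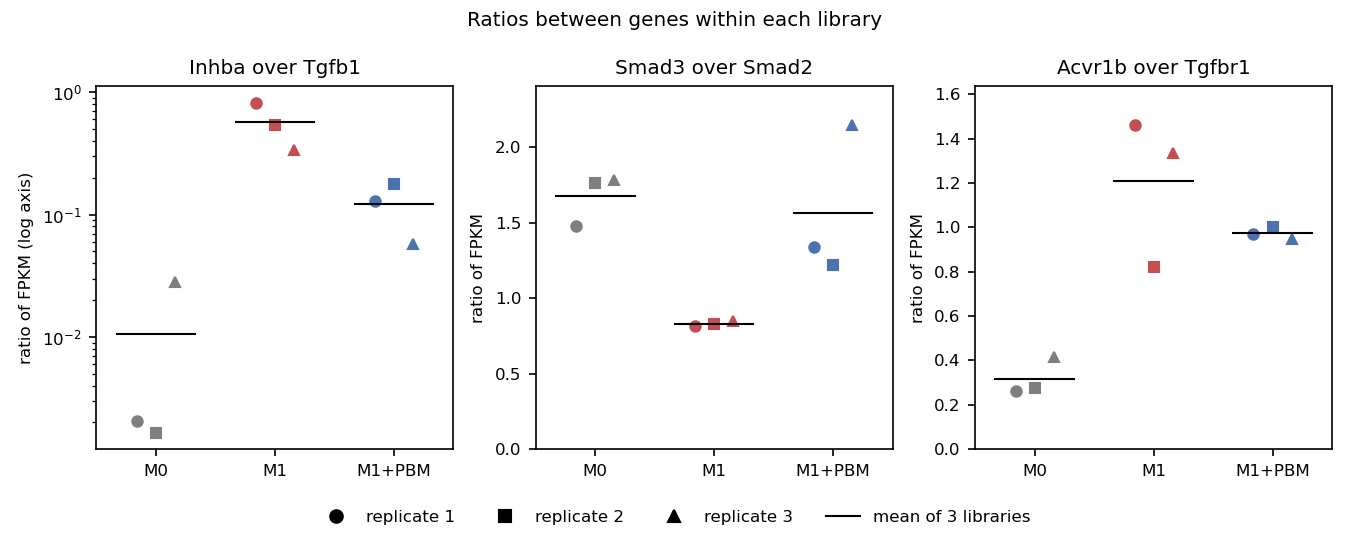
Ratio of FPKM between 2 genes (vertical axes; log axis for Inhba over Tgfb1) in the 3 libraries of each group, with replicate numbers as marker shapes and means as lines. Smad3 over Smad2 is above 1.21 in M0 and M1+PBM and below 0.847 in M1, whereas Acvr1b over Tgfbr1 in M1+PBM (0.948 to 1.00) lies within the M1 range.

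Of the inhibitors, Skil (ENSMUSG00000027660) had 3.15, 3.42 and 7.16 FPKM in M0, 7.31, 7.52 and 8.93 in M1, and 9.51, 7.27 and 7.78 in M1+PBM. Both stimulated groups were above M0 without overlap, narrowly so against M0 replicate 3. The M1 mean was 1.73-fold that of M0, and 2.41-fold without replicate 3. Relative to the median row the log2 difference from M0 was 1.02 in M1 and 0.99 in M1+PBM. M1 and M1+PBM overlapped (log2 difference 0.04, SE 0.13).

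Smad7 (ENSMUSG00000025880) was the lowest of the 10 genes in M1 and M1+PBM. It had 1.14, 0.89 and 1.39 FPKM in M0, 1.25, 0.79 and 0.89 in M1, and 0.68, 0.59 and 0.95 in M1+PBM, with overlap between all groups. It reached 1 FPKM in 1 of the 6 M1 and M1+PBM libraries and was left out of the fit. Without that minimum its log2 difference between M1+PBM and M1 was −0.18 (SE 0.14).

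In M0 the order was Tgfb1, Tgfbr1, Tgfbr2, Acvr1b, Smad3, Skil, Smad2, Acvr2a, Smad7 and Inhba, and neighbours from Smad3 to Acvr2a, as well as Smad7 and Inhba, overlapped over libraries. In M1 Inhba was second, and its range overlapped with those of Tgfb1, Acvr1b and Tgfbr1. In M1+PBM Inhba was seventh, and its range overlapped with those of Skil, Smad3, Smad2 and Acvr2a.

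Against M0, 4 of the 10 genes were higher in M1 without overlap (Inhba, Acvr1b, Smad2 and Skil) and 4 were lower (Tgfb1, Tgfbr2, Acvr2a and Smad3). Over the 13915 rows with at least 1 FPKM in 3 of the 9 libraries, 15.6% were higher in this way and 50.6% lower. With median-of-ratios scaling the same 4 genes were higher and only Tgfbr2 was lower, where 31.6% of all rows were higher and 25.3% lower. In M1+PBM against M0, Inhba, Acvr1b and Skil were higher (3 of 10, against 15.9% of all rows) and Tgfb1, Tgfbr1 and Tgfbr2 were lower (3 of 10, against 46.2%). With the scaling, Smad2 joined the higher genes and none of the 3 stayed lower, where 30.3% of all rows were higher and 23.8% lower. Without M0 replicate 3, 4 genes were higher and 5 lower in M1 (18.7% and 57.4% of all rows), Tgfbr1 being the added one, and 3 were higher and 3 lower in M1+PBM (19.2% and 54.3%). Both comparisons share the M0 libraries.

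**Figure D3:**
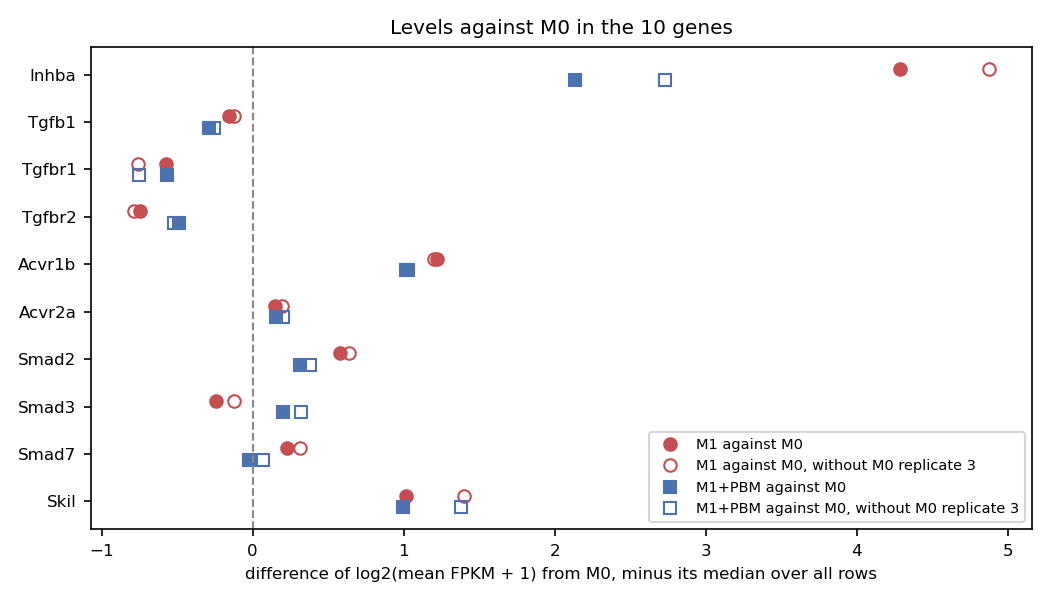
Difference of log2(mean FPKM + 1) from M0 for the 10 genes in M1 (circles) and M1+PBM (squares), minus the median difference of all rows; open markers leave out M0 replicate 3. Inhba, Acvr1b and Skil lie 0.99 or more above the median row in both groups, and Smad3 is on opposite sides of it (−0.24 in M1, 0.20 in M1+PBM).

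In M1+PBM against M1, Tgfbr2 and Smad3 were higher without overlap (8.51% of 12238 rows were, and 4.08% with median-of-ratios scaling) and Inhba and Smad2 were lower (2.52% of rows, and 4.85% with the scaling). These 4 genes kept their separation with median-of-ratios scaling. Leaving out a library cannot make separated groups overlap, so it could only add genes. The omission of M1 replicate 2, M1+PBM replicate 2 or M1+PBM replicate 3 added Tgfbr1 (higher), Acvr1b (lower) or Smad7 (lower) to the 4. The median log2 difference of the 9 genes that entered the fit was 0.039, beside 0.058 over all rows.

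**Figure D4:**
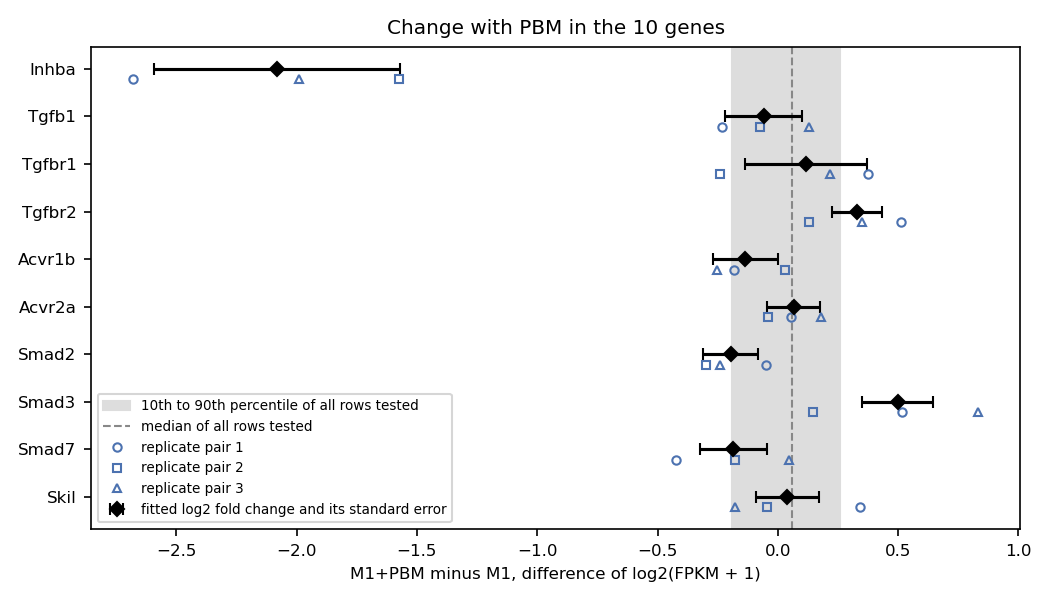
Difference of log2(FPKM + 1) between M1+PBM and M1 for the 10 genes: diamonds and bars are fitted values with standard errors, and open markers are the 3 replicate pairs. The grey band spans the 10th to 90th percentile of all rows (−0.19 to 0.26); Inhba (−2.08) lies below it, Smad2 at −0.20 lies at its lower edge, and Tgfbr2 (0.33) and Smad3 (0.50) lie above it.

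The rest of the pathway was read from a list of 69 further genes, chosen with earlier results of these data known. Shares over this list are therefore a description. Of the 69 genes, 37 reached 1 FPKM in at least 3 of the 6 M1 and M1+PBM libraries. These were tested with limma on log2(FPKM + 1). At an unadjusted p of at most 0.05, 4 genes fell and 1 rose with PBM, 13.5% of the 37 beside 4.44% of all rows (1.45% fell and 2.99% rose). None of the 37 also changed by 1 on the log2 scale, as 0.261% of all rows did, and none had an adjusted p under 0.05, as 1 of all rows had, 0.00817% (limma with Benjamini-Hochberg adjustment over all 12238 rows, adjusted p = 0.90 for each of the 5 genes, and 0.476 to 0.995 over their alternatives). The number at that unadjusted p moved with single libraries, as did the share of all rows. It was 0 without M1+PBM replicate 1 (2.12% of all rows) or 3 (2.79%), and 2 without M1 replicate 1 (2.55%) or 3 (4.25%). It was 6 with M1 replicate 2 left out (8.9%) and 9 when it was M1+PBM replicate 2 (7.6%). In the blocked fit, 4 genes fell and 2 rose (16.2% of the 37 beside 8.07% of all rows, of which 3.24% fell and 4.84% rose), again with no adjusted p under 0.05. The median log2 difference of the 37 genes was 0.022.

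No other ligand was tested. Of the 9 listed, Mstn was listed at 0 in every library, and Inhbb, which encodes the subunit of activin B, had 0.073 to 0.255 FPKM in M1 and M1+PBM. Tgfb2 and Tgfb3 stayed below 0.402 FPKM in those libraries. In M0 replicate 3 Inhbb had 1.35, Tgfb2 had 1.25 and Tgfb3 had 2.08 FPKM, and no other library had 1 FPKM of any of the 9. The extracellular antagonists were also low: Fst, which encodes the activin-binding protein follistatin, had at most 0.132 FPKM in M1 and M1+PBM, and Bambi, a decoy receptor, had 1.03 to 1.40 FPKM in M0 and 0.40 to 0.65 in the stimulated groups. Dcn went the other way from M0, with 0.11 to 0.50 FPKM in M0, 0.67 to 1.63 in M1 and 0.30 to 1.60 in M1+PBM.

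Among 11 genes of latency, activation and processing, 7 were tested. Thbs1, which encodes thrombospondin 1, an activator of latent TGF-beta, had 4.29, 4.21 and 30.5 FPKM in M0, 75.1, 42.2 and 190.9 in M1, and 35.5, 21.7 and 97.1 in M1+PBM. The M1 and M1+PBM libraries overlapped, but each irradiated library was below the M1 library of its own number by nearly the same step, −1.06, −0.93 and −0.97 on the log2 scale. The difference was −0.99 with an SE of 0.70 and an unadjusted p of 0.21 in limma without the block, and it moved from −0.40 without M1 replicate 3 to −1.58 without M1+PBM replicate 3. In limma with the block, whose pairing was inferred from these libraries, the SE was 0.075, the unadjusted p 6.4e-05 and the adjusted p 0.364.

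Nrros, which anchors latent TGF-beta 1 on myeloid cells, had 53.9, 60.1 and 57.4 FPKM in M0, 22.2, 24.3 and 10.0 in M1, and 36.8, 30.1 and 20.9 in M1+PBM. It was higher in the irradiated library of all 3 pairs (0.71, 0.30 and 0.99), and both stimulated groups were below M0. The log2 difference was 0.67 (SE 0.36, limma unadjusted p = 0.11) and 0.29 without M1 replicate 3, and with the block the unadjusted p was 0.0075 and the adjusted p 0.577.

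Itgb8, a subunit of the integrin that frees TGF-beta from its latent complex, had 0.088, 0.057 and 0.149 FPKM in M0, 3.69, 3.43 and 3.97 in M1, and 2.03, 3.43 and 1.35 in M1+PBM. Replicate 2 was alike in M1 and M1+PBM (3.43 in both), and the other pairs were lower with PBM. The log2 difference was −0.57 (SE 0.23, limma unadjusted p = 0.043), and the block gave an unadjusted p = 0.051. The unadjusted p was above 0.05 without any 1 of the M1 libraries or M1+PBM replicate 1 or 3 (−0.61 to −0.36), and also without a minimum FPKM. Furin, the protease that cleaves the precursors of both ligands, had 28.9, 21.9 and 28.6 FPKM in M1 and 17.1, 22.3 and 19.4 in M1+PBM. Its log2 difference was −0.41 (SE 0.15, limma unadjusted p = 0.034, unadjusted p = 0.056 with the block), and here too replicate 2 was the pair that was not lower. Without M1 replicate 1 or 3 or M1+PBM replicate 1 or 3 (−0.34, −0.35, −0.32 and −0.41) its unadjusted p was above 0.05.

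The 4 tested receptors and co-receptors had log2 differences of −0.14 to −0.053, and none had an unadjusted p of at most 0.05 in limma, with or without the block. Eng, the co-receptor endoglin, had 28.6, 23.4 and 32.2 FPKM in M1 and 26.4, 24.0 and 28.3 in M1+PBM, against 7.69 to 12.5 in M0. Acvrl1, the type I receptor ALK1, had 6.88, 4.78 and 12.0 FPKM in M1 and 7.54, 2.82 and 14.0 in M1+PBM. Of the Smads, Smad4, the partner shared by both receptor Smads, had 8.80, 8.58 and 10.3 FPKM in M1 and 9.02, 9.64 and 9.43 in M1+PBM, with a log2 difference of 0.02 (SE 0.10). Smad1, a receptor Smad of the BMP branch, had 6.56, 4.23 and 9.81 FPKM in M1 and 6.35, 5.39 and 4.98 in M1+PBM (log2 difference −0.20, SE 0.26). None of the 4 tested Smads of the wider list had an unadjusted p of at most 0.05 in limma, with or without the block.

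Of 15 co-repressors and negative regulators, 11 were tested. Wwp1, a ubiquitin ligase that acts on the TGF-beta receptor and Smads, had 43.8, 49.9 and 31.1 FPKM in M0, 6.29, 6.25 and 3.86 in M1, and 9.54, 7.16 and 8.07 in M1+PBM. It was higher with PBM in all 3 pairs with no overlap between M1 and M1+PBM, and far below M0 in both. The log2 difference was 0.53 (SE 0.19, limma unadjusted p = 0.029, unadjusted p = 0.021 with the block), and it was 0.44 and 0.55 without M1+PBM replicate 1 and replicate 3, where the unadjusted p was above 0.05. Tgif1, a homeobox co-repressor of Smad2, had 16.2, 15.3 and 17.7 FPKM in M1 and 12.8, 14.6 and 12.6 in M1+PBM, also without overlap (log2 difference −0.28, SE 0.10, limma unadjusted p = 0.034, unadjusted p = 0.047 with the block). Leaving out M1 replicate 1 or 3 or M1+PBM replicate 1 or 3 took Tgif1 past 0.05, with log2 differences of −0.29, −0.23, −0.25 and −0.24. Strap, a scaffold that joins Smad7 to the receptor, had 14.0 to 15.9 FPKM in M1 and 15.0 to 16.0 in M1+PBM.

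Of 15 target genes, 11 were tested and the individual genes went different ways. Bhlhe40, a transcriptional repressor, had 11.7, 14.5 and 6.67 FPKM in M0, 6.01, 5.49 and 2.64 in M1, and 2.32, 3.08 and 1.81 in M1+PBM. It was lower with PBM in all 3 pairs, while M1 replicate 3 lay within the M1+PBM range. The log2 difference was −0.71 (SE 0.28, limma unadjusted p = 0.040, unadjusted p = 0.0069 with the block). The unadjusted p was above 0.05 when M1 replicate 1 or 2 or M1+PBM replicate 1 or 3 was left out (−0.53, −0.59, −0.70 and −0.58), and without a minimum FPKM.

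Tgfbi, a matrix protein first cloned as a TGF-beta-induced gene, had the highest level of the 37 genes, with 253.2, 253.2 and 149.2 FPKM in M1 and 456.2, 195.2 and 437.0 in M1+PBM. M1+PBM replicate 2 was below its M1 partner and the other pairs were above theirs. The log2 difference was 0.67 (SE 0.38, limma unadjusted p = 0.12), and 1.07 with an unadjusted p under 0.05 without M1+PBM replicate 2. The stromal marker sum was also 7.57 FPKM in M1+PBM replicate 2, against 26.9 and 31.7 in replicates 1 and 3 and 15.6 to 17.1 in M1, and its part in the Tgfbi values was not tested. Junb, an AP-1 transcription factor, had 92.0, 75.2 and 115.4 FPKM in M1 and 65.6, 81.1 and 65.3 in M1+PBM (log2 difference −0.40, SE 0.18, limma unadjusted p = 0.069). It passed an unadjusted p of 0.05 without M1 replicate 2 (−0.55) or M1+PBM replicate 2 (−0.50).

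**Figure D5:**
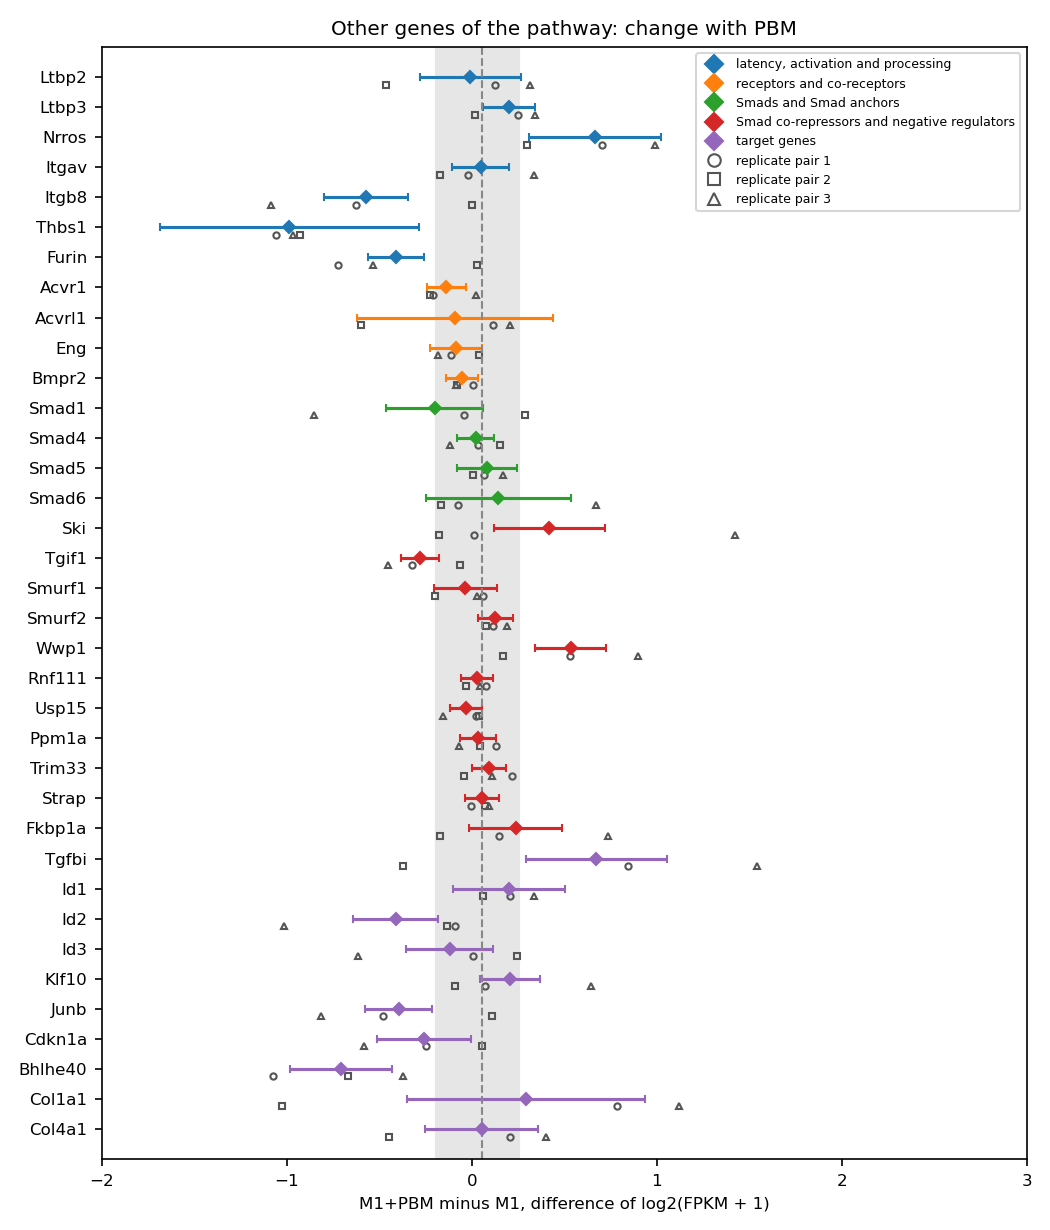
Difference of log2(FPKM + 1) between M1+PBM and M1 for 36 of the 37 tested genes of the wider pathway list, coloured by role: diamonds and bars are fitted values with standard errors and open markers are the 3 replicate pairs. The grey band spans the 10th to 90th percentile of all rows; the 3 pairs of Thbs1 lie close together near −0.99, and those of Tgfbi spread from −0.37 to 1.54.

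Against M0, 42 of the 69 genes had at least 1 FPKM in 3 of the 9 libraries. Of these, 9 were higher in M1 without overlap and 18 lower, beside 15.6% and 50.6% of all rows, and with median-of-ratios scaling the counts were 12 and 10, beside 31.6% and 25.3%. In M1+PBM 7 were higher and 17 lower, beside 15.9% and 46.2% of all rows, and 12 and 11 with the scaling, beside 30.3% and 23.8%. In both groups and with either scaling, Itgb8, Eng, Smurf1, Usp15 and Tgfbi were higher, and Ltbp3, Nrros, Bambi, Ski, Nedd4l, Wwp1, Trim33, Id3, Klf10 and Cdkn2b were lower. Ltbp3, a latent TGF-beta binding protein, had 7.08 to 10.7 FPKM in M0, 1.63 to 2.57 in M1 and 2.33 to 2.95 in M1+PBM.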

How the data were processed

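Bulk RNA-seq of 9 libraries (M0, M1 and M1+PBM, 3 each) was analysed. The deposited values are FPKM, in 1 table for M0 and 1 for the other 6 libraries. Libraries were strand-specific and sequenced on a HiSeq instrument, and Cufflinks methods are named for the expression values. The submitters' processing notes name Bowtie 0.12.2 and mm9, and the annotation is not given in the sources used here. GENCODE M21 gave symbols for 55154 of 55655 rows. Row names of 320 rows began with MSTRG.

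Rows with FPKM of at least 1 in 3 of the 6 M1 and M1+PBM libraries (12238) were fitted as log2(value + 1) with limma 3.58.1 (R 4.3.3, trend), which understates the change of low genes. The script was tested on simulated data. A gene was called at an unadjusted p of 0.05 or less with a log2 change of 1 or more in either direction. Depth was estimated from single-transcript genes, in which 18.0% to 24.7% of low values lay within 0.05 of a whole fragment (10% if even), so no reads were recovered and no count test was run. An exact permutation test of 3 against 3 libraries cannot go below p = 0.1 and was not used.

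Replicate numbers were taken to pair M1 and M1+PBM libraries, because the deviations of libraries with the same number from their group means correlated (r = 0.157, 0.469 and 0.462, and −0.491 to 0.0328 for different numbers). The labels state no shared animal or day. The fit with the number as a block, other pseudocounts, minimums and scalings, and the omission of each library were alternatives. The 10 genes and the pathway and marker lists were chosen with earlier results of these data known. Named genes of the pathway list were those at an unadjusted p of at most 0.05 and, in each role, the 2 tested genes with the highest mean FPKM. The 5 genes most like Inhba were taken by Pearson's r. Promoter windows came from RefSeq on GRCm38.p6, and no coordinates of the mm9 files were used. The values of 1 listed target gene are not reported here, and it is counted in the totals of the list.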

Additional observations from a re-analysis of the deposited data

How the results depend on the processing

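In M1+PBM against M1, 32 genes were called, and the unadjusted p was 0.05 or less in 543. A pseudocount of 0.1 gave 75 called genes. No minimum FPKM gave 1318 genes at that p and 3 of the pathway list instead of 5, and a mean FPKM of at least 5 gave 233 and 3. The replicate block gave 988 genes at that p and 1 called pathway gene instead of 0, and beside the changes given in the report it changed no other call. Leaving out 1 library at a time gave from 27 (without M1+PBM replicate 1) to 89 (without M1+PBM replicate 2) called genes, with 69 when M1 replicate 2 was left out, and from 259 (without M1+PBM replicate 1) to 1089 (without M1 replicate 2) genes at the unadjusted p. In the pathway list it gave 0 to 2 called genes and 0 to 9 at the unadjusted p. In each of these fits 1 gene had an adjusted p under 0.05, and none of the pathway list. Median-of-ratios scaling left 5 of the 10 genes without overlap between M1 and M0 instead of 8. Of the 37 tested pathway genes, 18 changed the sign of their log2 difference under at least 1 alternative. Of the 10 genes, Tgfb1 (up to 0.045), Tgfbr1 (down to −0.045), Acvr2a (down to −0.021) and Skil (down to −0.062) did so when 1 library was left out, and Skil with median-of-ratios scaling (−0.032) and quantile normalization (−0.0051). Of the named pathway genes, the sign changed when 1 library was left out in Acvrl1 (−0.56 to 0.43, positive without M1 replicate 3, at 0.22, and M1+PBM replicate 2), Eng (−0.21 to 0.016, positive without M1 replicate 3), Smad1 (−0.46 to 0.060, likewise) and Smad4 (−0.024 to 0.097, negative without M1 replicate 1 and, at the lower end, replicate 2). It also did in Smad4 (−0.051) and Strap (−0.021) with median-of-ratios scaling and in Smad4 with quantile normalization (−0.0093). The cause was not tested. Depth limits the M0 values of Inhba in replicates 1 and 2, which rest on at most about 22 fragments each.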
